A study of Arabidopsis thaliana with 12 samples.

Results

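The genes described here encode proteins of the cytosolic ribosome of Arabidopsis thaliana. They are 60 genes chosen by their identifiers, out of 33687 transcripts in the deposited tables, and they make up 27 protein families, 25 of which have at least 2 paralogs on the list. Of the 60, 33 encode proteins of the large subunit, counting the stalk protein P0, and 27 encode proteins of the small subunit. The families are those of S2, S3, S4, S5, S6, S10, S13, S15, S18, S21, S24, S28 and SA in the small subunit, and of L3, L4, L5, L8, L9, L10, L11, L13, L18, L23, L24, L27a, L28 and P0 in the large subunit.

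Poly(A) RNA of pooled, untreated 10-day-old whole seedlings was sequenced in 12 libraries, 3 for each of 4 lines in the Col-0 background. In Atdoa10a/b RNAi 4-2, a T-DNA insertion in Atdoa10a is combined with an RNAi construct against exons of AtDOA10B, in 1 transgenic line. AtDOA10A and AtDOA10B are ubiquitin E3 ligases of the endoplasmic reticulum. The amiNAA10 line expresses an artificial microRNA against NAA10, the catalytic subunit of the N-terminal acetyltransferase NatA, and Atnaa20 is a mutant of NAA20, the catalytic subunit of NatB. Untransformed Col-0 seedlings (labelled WT) are the control. In whole seedlings, fewer cells rich in ribosomes and less ribosomal protein mRNA per cell cannot be told apart.

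The cytosolic ribosome translates the mRNAs made in the nucleus. Its small subunit decodes the message and its large subunit joins the amino acids, and each is built from ribosomal RNA and a set of proteins that are needed in about equal numbers. In Arabidopsis nearly every ribosomal protein is encoded by several paralogous genes, most of them active in growing tissue, so that the supply of a protein is the sum over its paralogs. Many plant ribosomal protein genes carry the telo box and the site II element near their transcription start, short motifs known from genes that are active in dividing cells. Ribosomal proteins are also frequent substrates of N-terminal acetylation, the addition of an acetyl group to the first residue of a protein while it is being made.

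The values are the authors' mean normalised counts, 1 for each line. The sums of these means over all transcripts ran from 21639733 in the group labelled Atnaa20, the largest, down to 20338996 in Col-0. The means of the RNAi line and of Col-0 could be split back into counts of the 3 libraries behind each, named A to C. This held for 33626 transcripts in both lines, with 15404605 to 18436319 counts a library. Some of the most abundant transcripts were not split, so these are not whole library totals. The RNAi line and the Col-0 used here stand in 1 table and the NAT lines in others. The Col-0 columns of those others belong to another series by the paper's data statement and were not used. The tables were normalised separately, so that in a ratio of an NAT line to the Col-0 used here the line and the table cannot be told apart. Each log2 ratio given below was therefore centred, by taking off the median over all genes with a mean of at least 10 in both lines. Of the targeted genes, NAA10 (AT5G13780) had a mean of 123 in amiNAA10 and 885 in Col-0, and AtDOA10A (AT4G34100) had 841 in the RNAi line and 2272 in Col-0. AtDOA10B (AT4G32670) had 511 in the RNAi line and 282 in Col-0, where reads of the construct and of the gene cannot be told apart. NAA20 (AT1G03150) had 680 in the group labelled Atnaa20 and 263 in Col-0, which goes against a label of loss if it is read as an mRNA level, so this line is called the group labelled Atnaa20 throughout.

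Of the 60 genes, 59 had means of at least 10 in every line. The exception was AT3G51190, a paralog of the large-subunit protein L8, with means of 0.00 in the RNAi line, 0.59 in amiNAA10, 0.00 in the group labelled Atnaa20 and 1.01 in Col-0. It is left out of the ratios. The other L8 genes, AT2G18020 (EMB2296) and AT4G36130, had 7491 and 2284 in Col-0. Compared per kilobase of annotated mRNA, the highest level in Col-0 was that of RPL10A (AT1G14320), with 10071 in the RNAi line, 10278 in amiNAA10, 7181 in the group labelled Atnaa20 and 8614 in Col-0. L10 is a late-joining protein of the large subunit. It was followed by emb2171 (AT3G04400), an L23 gene, with 9598, 11135, 8883 and 8287 per kilobase in the same order of lines, by the L27a gene AT1G70600 with 8339, 9211, 6352 and 7510, by RPL3A (AT1G43170) with 8074, 9277, 5769 and 7206, and by RPL18 (AT3G05590) with 8298, 9609, 6541 and 7037. All 5 are large-subunit genes, and each was lower per kilobase in Col-0 than in the RNAi line and amiNAA10.

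The mRNAs of the 60 genes took the largest share of the summed means in amiNAA10 and the smallest in the group labelled Atnaa20. The 60 genes summed to 1.23% of the means in Atdoa10a/b RNAi 4-2, 1.28% in amiNAA10, 0.857% in the group labelled Atnaa20 and 1.09% in Col-0. The balance between the subunits differed little beside this. Large-subunit genes held 57.6% of the 60 genes' total in the RNAi line, 57.9% in amiNAA10, 58.3% in the group labelled Atnaa20 and 57.6% in Col-0. Over the 59 genes, the lowest of the 4 means was that of the group labelled Atnaa20 for 55 and that of Col-0 for 4, and the highest was that of amiNAA10 for 46 and that of the RNAi line for 13. These are means with no centring, from tables normalised separately, and the order of the 4 lines over all genes is not given beside them. The order of amiNAA10 and the RNAi line turned with centring. The log2 ratio of amiNAA10 over the RNAi line then lay above 0 for 15 of the 59 genes, with a median of −0.11.

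**Figure D1:**
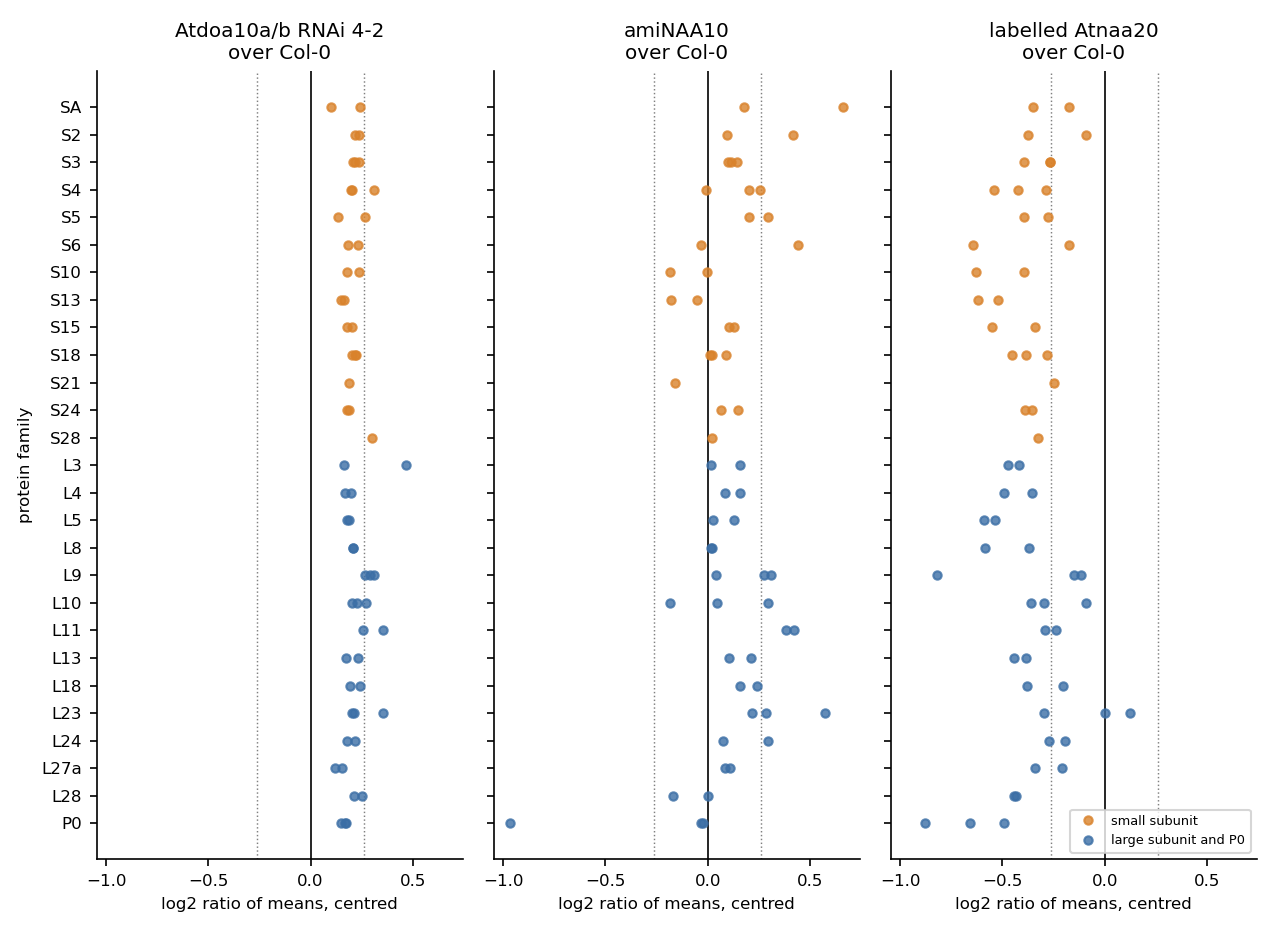
Centred log2 ratio of the authors' mean normalised counts (horizontal axis) for each of 59 ribosomal protein genes, arranged by protein family (vertical axis), with a panel each for Atdoa10a/b RNAi 4-2, amiNAA10 and the library group labelled Atnaa20, all over Col-0. Each point is 1 gene, orange for the small and blue for the large subunit with P0, and the dotted lines mark a fold of 1.2. The genes lie between 0.10 and 0.46 in the RNAi line, between −0.96 and 0.66 in amiNAA10 and between −0.88 and 0.12 in the group labelled Atnaa20.

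In Atdoa10a/b RNAi 4-2, every one of the 59 genes had a higher mean than in Col-0, by small amounts that were alike in both subunits. The median centred log2 ratio was 0.21, with a range of 0.10 to 0.46, against a median of 0 over all genes. The median was 0.21 over the 32 large-subunit genes and 0.20 over the 27 small-subunit genes. Past a fold of 1.2, 10 genes were higher (7 of the large and 3 of the small subunit) and none was lower, while 7.61% of 19862 genes were higher and 10.7% were lower by the same fold. Counting error alone gives a ratio a 95% half-width of 0.022 to 0.26 on the log2 scale (median 0.039), and it covers neither library preparation nor differences between seedlings.

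The libraries behind these means overlapped. Relative to the mean of the Col-0 libraries, the 59 genes had a median log2 value of 0.26 in RNAi library A, 0.25 in B and 0.10 in C, against 0.03 in Col-0 library A, −0.11 in B and 0.09 in C. By this median RNAi libraries A and B stood above every Col-0 library, whereas RNAi library C lay beside Col-0 library C. The 3 RNAi libraries were all above the 3 Col-0 libraries for 32 of the 59 genes, where 11.2% of 19803 genes showed this and 10.6% showed the opposite order, which none of the 59 did. The count of genes past 1.2-fold moved with single libraries. It was 24 without RNAi library C and 20 without Col-0 library C, 5 without RNAi library A, 6 without RNAi library B and 2 without Col-0 library B. The median ratio stayed between 0.16 and 0.26 in these settings, for which the share of all genes past the fold is not given.

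**Figure D2:**
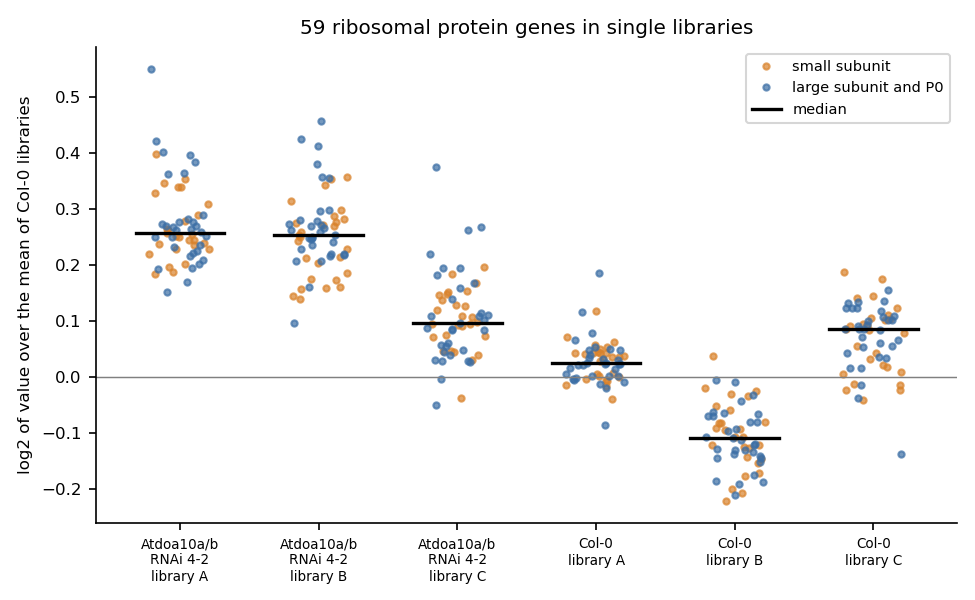
Log2 of the normalised count of 59 ribosomal protein genes in each of the 3 Atdoa10a/b RNAi 4-2 libraries and each of the 3 Col-0 libraries (horizontal axis), relative to the mean of the Col-0 libraries (vertical axis). Points are genes, orange for the small and blue for the large subunit with P0, and black lines are medians: 0.26, 0.25 and 0.10 in the RNAi libraries, and 0.03, −0.11 and 0.09 in the Col-0 libraries. RNAi library C and Col-0 library C overlap over most of their range.

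With a limma fit over the 6 libraries and 19803 genes, 3 of the 59 genes rose in the RNAi line at a Benjamini-Hochberg adjusted p under 0.05 and none fell, where 1.09% of all genes were called higher and 1.18% lower. At an unadjusted p under 0.05, 44 of the 59 were higher and none was lower, against 8.38% and 8.29% of all genes. The standard errors of the 59 differences ranged from 0.054 to 0.16 on the log2 scale. These p-values measure the spread between 3 libraries a line, each from pooled seedlings. None of the 3 calls was kept when RNAi library A, RNAi library B or Col-0 library A was left out. Without Col-0 library C, the calls of AT1G04480 (adjusted p = 0.0558) and AT5G03850 (adjusted p = 0.0580) were lost too in the limma fit. AT1G61580 kept its call there (limma adjusted p = 0.0100). In that setting 3 of the 59 genes were again called, so genes not called with all 6 libraries were among them.

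The gene with the largest difference was RPL3B (AT1G61580), the minor gene for L3, a protein that in yeast reaches the peptidyl transferase centre. It had 854, 800 and 756 normalised counts in the RNAi libraries A to C, against 550, 566 and 633 in the Col-0 libraries, so that the groups did not overlap. Its mean was 803 ± 49.1 in the RNAi line and 583 ± 44.0 in Col-0 (SD, n = 3 libraries each). The limma log2 difference was 0.46 (SE 0.078, adjusted p = 0.0139), and the adjusted p was 0.0685, 0.0905 and 0.0710 without RNAi library A, RNAi library B and Col-0 library A. Its paralog RPL3A (AT1G43170) had 12184, 12221 and 10643 in the RNAi libraries, against 10656, 9172 and 11455 in Col-0. There the groups overlapped (limma log2 difference 0.17, SE 0.089, adjusted p = 0.38).

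The second call was the L23 gene AT1G04480, which encodes a protein at the interface between the subunits. It had 3872, 3882 and 3310 normalised counts in the RNAi libraries, against 2993, 2757 and 2923 in Col-0. No RNAi library fell within the Col-0 range (limma log2 difference 0.35, SE 0.072, adjusted p = 0.0341). The other L23 genes had smaller differences, with a limma log2 difference of 0.20 for AT2G33370 and 0.21 for emb2171. The remaining call was the S28 gene AT5G03850, a short protein of the small subunit, with 2614, 2638 and 2367 in the RNAi libraries, against 2131, 1950 and 2112 in Col-0 (limma log2 difference 0.30, SE 0.065, adjusted p = 0.041). The next largest ratios did not pass the test. RPL16A (AT2G42740) of the L11 family, whose protein joins the ribosome together with L5, had a mean of 359 in the RNAi line and 281 in Col-0 (limma adjusted p = 0.104). PGY2 (AT1G33140), an L9 gene known from mutants with altered leaf shape, had 2151 and 1737 (limma adjusted p = 0.0567), and the S4 gene AT5G58420 had 3485 and 2817 (limma adjusted p = 0.13).

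The smallest ratios of the RNAi line were those of P40 (AT1G72370), which encodes SA, a small-subunit protein related to the mammalian laminin receptor precursor, with 7071 in the RNAi line and 6602 in Col-0 (log2 0.10), of RPL27AB (AT1G23290) with 3716 and 3431 (0.12), and of RPS5A (AT3G11940), a gene whose promoter is much used to drive expression in meristems, with 5302 and 4837 (0.13). The P0 gene AT3G11250 had 808 and 730, and the S13 gene AT3G60770 had 3917 and 3534, each with a log2 ratio of 0.15. Spearman's rho between the ratio and the level in Col-0 was −0.45 across the 59 genes, which share libraries and are not independent. The Col-0 mean enters both values, and error in it alone pulls rho below 0. No dependence of the ratio on level is therefore read from it.

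In amiNAA10, the genes split: 47 of 59 had a centred ratio above 0 over Col-0, with a median of 0.10 and a range of −0.96 to 0.66. Past 1.2-fold, 12 were higher (8 of the large and 4 of the small subunit) and 1 was lower, while 20.9% of 19842 genes were higher and 23.6% were lower. The share of members past the fold upward (12 of 59) was thus close to that of all genes. Large-subunit genes had a median of 0.11 and small-subunit genes 0.10. No library values were at hand for this line, so its ratios carry no test. The placing against Col-0 depended on the scaling. With no centring the median was 0.31, against 0.21 over all genes, and 37 genes were higher past 1.2-fold. With Atdoa10a/b RNAi 4-2 in place of Col-0 the median was −0.11. There 1 gene was higher and 8 were lower, against 3623 and 4152 of 19806 genes. Without Col-0 library B, 6 genes were higher past 1.2-fold and the median was 0.05. The share of all genes past the fold is not given for that setting or for no centring.

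The highest ratio in amiNAA10 was that of RPSAb (AT3G04770), the minor gene for SA, with a mean of 351 in amiNAA10 and 192 in Col-0 (centred log2 ratio 0.66, a fold of 1.58). AT1G04480 of L23 had 4967 in amiNAA10 and 2891 in Col-0 (0.57). RPS6B (AT5G10360), a gene for S6, the small-subunit protein phosphorylated by S6 kinase downstream of the TOR kinase, had 8143 and 5189 (0.44). The L11 gene AT3G58700 had 1350 and 872, and the S2 gene AT3G57490 had 609 and 395, each with a ratio of 0.42. At the other end, the P0 gene AT2G40010 had 43.8 in amiNAA10 and 74.1 in Col-0 (−0.96, counting half-width 0.31). P0 forms the base of the stalk that draws elongation factors to the ribosome, and AT2G40010 was the least abundant of its 3 genes in every line. The next lowest were RPL10C (AT1G66580) with 3773 and 3713, the S10 gene AT5G52650 with 2992 and 2943, AT3G60770 of S13 with 3610 and 3534, and the L28 gene AT2G19730 with 3517 and 3423, all with centred ratios between −0.18 and −0.17. Their uncentred means in amiNAA10 were above those in Col-0, so that the sign of these 4 ratios comes from the centring.

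In the group labelled Atnaa20, ribosomal protein mRNAs were lower than in Col-0 in nearly every family. Of 59 genes, 46 were lower past 1.2-fold (23 of each subunit) and none was higher, while 20.9% of 19779 genes were lower and 18% were higher. The median centred log2 ratio was −0.37, with a range of −0.88 to 0.12, and 2 genes lay above 0. Large-subunit genes had a median of −0.37 and small-subunit genes likewise −0.37. With no centring the median was −0.27, against 0.10 over all genes, and 30 genes were lower past 1.2-fold. The share of all genes past the fold is not given for that setting. With the RNAi line in place of Col-0 the median was −0.58. The median was between −0.42 and −0.32 when each Col-0 library was left out.

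The lowest ratio here was again that of AT2G40010 of P0, with 43.1 in the group labelled Atnaa20 and 74.1 in Col-0 (−0.88, counting half-width 0.31). RPL9D (AT4G10450), an L9 gene, had 528 and 871 (−0.82), AT3G11250 of P0 had 496 and 730 (−0.66), RPS6A (AT4G31700) had 3863 and 5641 (−0.65) and AT5G52650 of S10 had 2040 and 2943 (−0.63). At the upper end, AT1G04480 of L23 had 3377 in the group labelled Atnaa20 and 2891 in Col-0 (0.12) and emb2171 had 8235 and 7682 (0.00). RPL10C had 3741 and 3713 (−0.09), AT3G57490 of S2 had 398 and 395 (−0.09) and PGY2 had 1718 and 1737 (−0.12). AT1G04480 was thus among the highest ratios in each of the 3 comparisons with Col-0, which share the Col-0 libraries.

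The median ratio between the NAT lines was larger than that of either over Col-0. For amiNAA10 over the group labelled Atnaa20, 55 of 59 genes were higher past 1.2-fold and none was lower, while 24.9% of 19790 genes were higher and 22.7% were lower. The median centred log2 ratio was 0.50, with 0.50 for the large and 0.49 for the small subunit. Only RPL10C (−0.09) and AT2G40010 (−0.08) lay below 0 of the 59. RPL9D had the largest ratio at 0.87, with means of 1033 in amiNAA10, against 528 in the group labelled Atnaa20, and RPSAb followed at 0.85, with 351 and 182. With no centring the median was 0.60. These lines come from separate tables and their library values were not at hand, so this comparison too has no test.

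The remaining genes lay between these ends. In the small subunit they were AT2G41840 of S2, AT2G31610, AT3G53870 and AT5G35530 of S3, a protein at the mRNA entry site, AT2G17360 and AT5G07090 of S4, RPS5B (AT2G37270), RPS10B (AT5G41520), RPS13A (AT4G00100), RPS15 (AT1G04270) and AT5G09510 of S15, PFL (AT1G22780), AT1G34030 and RPS18C (AT4G09800) of S18, AT3G53890 of S21, and AT3G04920 and AT5G28060 of S24. PFL is known from a mutant with pointed first leaves. In the large subunit they were AT3G09630 and AT5G02870 of L4, a protein that lines the exit tunnel, ATL5 (AT3G25520) and RPL5B (AT5G39740), which bring the smallest ribosomal RNA into the subunit, AT1G33120 of L9, RPL10B (AT1G26910), BBC1 (AT3G49010) and AT5G23900 of L13, AT5G27850 of L18, RPL24A (AT2G36620) and STV1 (AT3G53020) of L24, AT4G29410 of L28 and AT3G09200 of P0. STV1 is known from mutants with altered fruit patterning and for its part in reinitiation after upstream reading frames. The 3 S18 genes, for example, had centred ratios of 0.22, 0.20 and 0.22 in the RNAi line, 0.01, 0.09 and 0.02 in amiNAA10 and −0.38, −0.46 and −0.28 in the group labelled Atnaa20.

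Within families, the share of the total that each paralog supplied does not depend on the scaling of a table, but other differences between tables can still enter it. The paralogs of a family had closer ratios in the RNAi line than in the NAT lines. The RNAi line and Col-0 stand in the same table and the NAT lines in others. The line and the table therefore cannot be told apart in this contrast, nor in the shares of the NAT lines given below. The widest difference in log2 ratio to Col-0 between paralogs of a family had a median over 25 families of 0.04 in the RNAi line, 0.10 in amiNAA10 and, for the group labelled Atnaa20, 0.17. It reached 0.4 in no family of the RNAi line, in 3 families of amiNAA10 (SA, L10 and S6) and in 3 of the group labelled Atnaa20 (L9, S6 and L23), counting paralogs with a mean of at least 50 in all lines. The widest in the RNAi line was 0.30, in L3.

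The S6 pair shifted in the same direction in both NAT lines. RPS6A supplied 51.2% of the S6 total in the RNAi line, 43.9% in amiNAA10, 43.9% in the group labelled Atnaa20 and 52.1% in Col-0, with 95% exact binomial intervals no wider than 43.3 to 44.5% in the NAT lines that cover counting error only. In single libraries the share was 51.2% in each of the 3 RNAi libraries, against 52.5%, 50.4% and 53.0% in Col-0, so the shares in the NAT lines lay below the range of all 6 libraries. Those 6 libraries stand in another table than the NAT lines, so the line and the table cannot be told apart in this shift. The log2 difference between RPS6B and RPS6A was 0.47 in amiNAA10, where the centred ratios were 0.44 and −0.03, and 0.47 in the group labelled Atnaa20, where they were −0.17 and −0.65. For amiNAA10 over the group labelled Atnaa20 it was 0.00045. RPS6A and RPS6B are 84.7% identical over their aligned coding sequences, and no 100-base stretch of either mRNA occurs in another gene, so reads can be told apart.

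RPL9D had a smaller share in both NAT lines. It supplied 22.9% of the L9 total in the RNAi line, 19.9% in amiNAA10, 15.5% in the group labelled Atnaa20 and 22.9% in Col-0. Its share was 21.7% to 23.6% in the RNAi libraries and 22.8% to 23.01% in the Col-0 libraries, above both NAT lines. In the group labelled Atnaa20 its centred ratio was −0.82, against −0.15 for AT1G33120 and −0.12 for PGY2. The last 2 genes lie close together on chromosome 1 and are 99.1% identical in coding sequence. Of the 100-base stretches of their mRNAs, 50.8% of AT1G33120 and 51.7% of PGY2 occur in the other, so how the counts were divided between them is uncertain, whereas RPL9D shares none.

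In L10, RPL10C supplied 27% of the total in the RNAi line, 24.2% in amiNAA10, 31.2% in the group labelled Atnaa20 and 27.3% in Col-0, with 26.3% to 28.1% in the RNAi libraries and 25.4% to 28.9% in the Col-0 libraries. The NAT lines therefore lay on opposite sides of the range of the libraries. RPL10A, a gene known for the antiviral signalling of its protein in Arabidopsis, supplied 73.4% in amiNAA10, 66.8% in the group labelled Atnaa20 and 70.7% in Col-0. In L23, AT1G04480 supplied 25.3% in the RNAi line, 28% in amiNAA10, 25.7% in the group labelled Atnaa20 and 23.5% in Col-0, with 24.6% to 25.7% in the RNAi libraries and 23.1% to 23.9% in the Col-0 libraries. Its share did not overlap between the RNAi line and Col-0. The same held for RPS5A in S5, with 65.7% to 67.8% in the RNAi libraries and 67.9% to 69.5% in the Col-0 libraries. With 3 libraries a line, such separations also occur where lines do not differ, and the shares were not tested. RPSAb supplied 3.11% of SA in the RNAi line, 3.91% in amiNAA10, 3.18% in the group labelled Atnaa20 and 2.83% in Col-0, and RPL3B supplied 6.43%, 4.83%, 5.11% and 5.29% of L3 in the same order of lines. RPL3B's share was 6.15% to 6.63% in the RNAi libraries and 4.91% to 5.81% in the Col-0 libraries. AT2G40010 supplied 0.938%, 0.494%, 0.721% and 0.934% of P0.

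**Figure D3:**
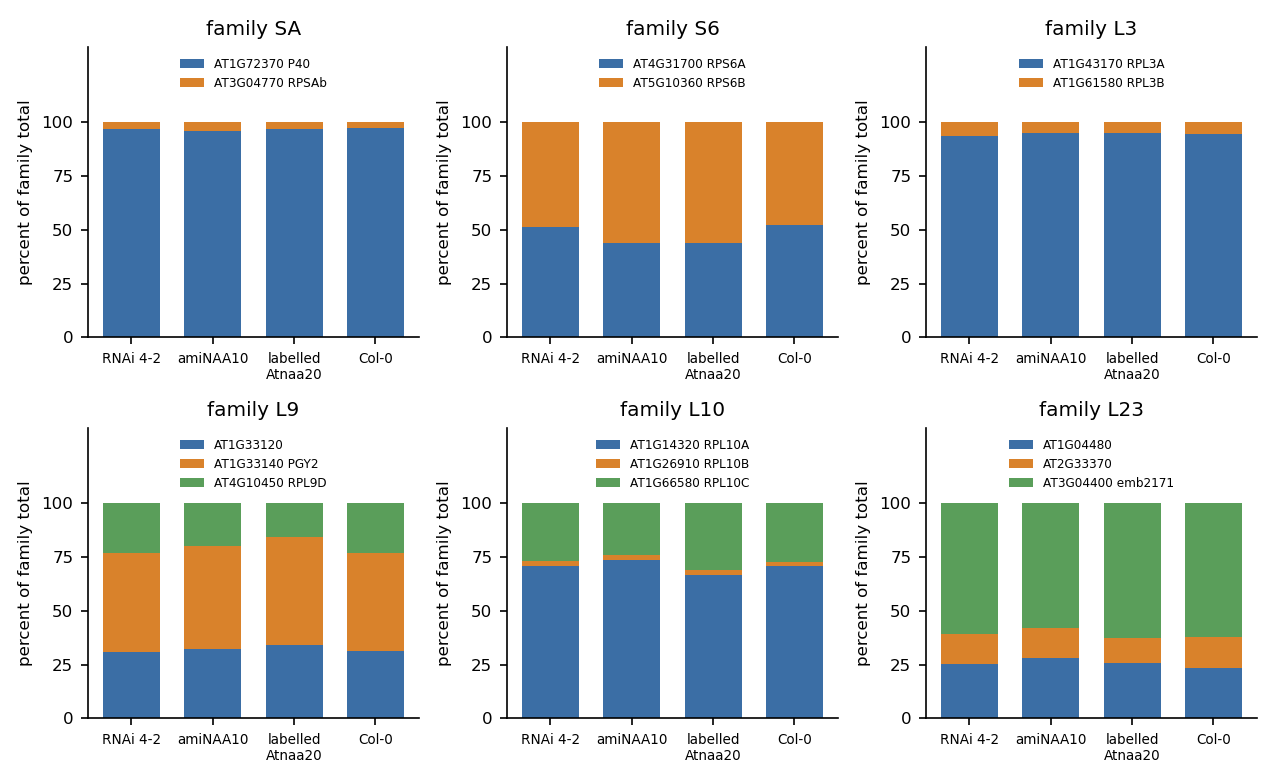
Share of each paralog in the summed mean normalised counts of its family (vertical axis, percent) in Atdoa10a/b RNAi 4-2, amiNAA10, the group labelled Atnaa20 and Col-0 (horizontal axis), for the 6 families SA, S6, L3, L9, L10 and L23. Colours are paralogs, named above each panel. RPS6A takes 43.9% of S6 in both NAT lines and 52.1% in Col-0, and RPL9D takes 15.5% of L9 in the group labelled Atnaa20 and 22.9% in Col-0.

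The promoters of the 60 genes were read around the annotated start in the TAIR10.1 genome with the RefSeq annotation, from 250 bases before the start to 50 bases after it. The telo box (AAACCCTA on either strand) was found in 33 of 60 windows (55.0%) and in 6.22% of the windows of 27443 protein-coding genes. The site II element (TGGGCC on either strand) was found in 44 of 60 (73.3%) and in 15.5% of all windows. Both occurred in 23 of 60 (38.3%, against 1.63%), and neither in 6 (10.0%, against 80.0%). The 70 site II matches had a median position of −44.5 relative to the start and the 37 telo boxes one of 6, just inside the transcript. A stretch TGGGCCCA holds the element on both strands and counts as 2 overlapping matches.

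**Figure D4:**
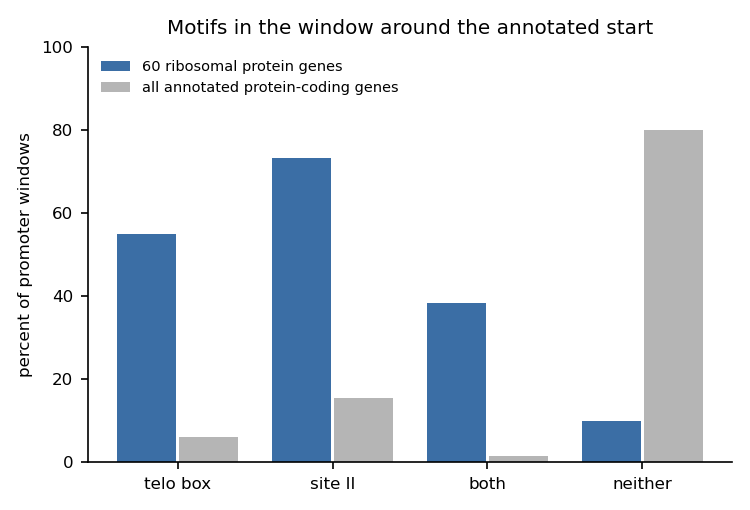
Percent of 300-base windows around the annotated start (vertical axis) that hold the telo box, the site II element, both or neither (horizontal axis), for the 60 ribosomal protein genes (blue) and for all 27443 annotated protein-coding genes (grey). Site II was found in 73.3% of the ribosomal protein windows and in 15.5% of all windows, and neither motif in 10.0% and 80.0%.

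The genes with and without a motif had like median ratios, with the widest gap for site II in amiNAA10. In the group labelled Atnaa20 the median log2 ratio was −0.38 with a telo box and −0.36 without, and −0.36 with a site II element and −0.41 without. In the RNAi line the medians were 0.20 and 0.21 with and without a telo box, and 0.20 and 0.21 with and without site II, and in amiNAA10 they were 0.10 and 0.10 for the telo box and 0.11 and 0.02 for site II. The 150 bases before the start are shown for the S6, L3 and SA pairs, picked after their values were seen because their paralogs differed in ratio (S6 and SA in amiNAA10, L3 in the RNAi line). Capitals mark a telo box or a site II element on either strand.
RPS6A (AT4G31700): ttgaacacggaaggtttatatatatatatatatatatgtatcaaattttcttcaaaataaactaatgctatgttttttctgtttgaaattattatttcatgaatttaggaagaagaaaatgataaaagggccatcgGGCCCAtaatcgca
RPS6B (AT5G10360): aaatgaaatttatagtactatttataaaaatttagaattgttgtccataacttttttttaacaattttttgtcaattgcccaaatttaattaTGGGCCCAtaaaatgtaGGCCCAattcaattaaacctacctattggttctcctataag
RPL3A (AT1G43170): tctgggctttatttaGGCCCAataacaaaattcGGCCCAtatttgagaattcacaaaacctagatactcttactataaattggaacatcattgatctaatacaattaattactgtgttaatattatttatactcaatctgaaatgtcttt
RPL3B (AT1G61580): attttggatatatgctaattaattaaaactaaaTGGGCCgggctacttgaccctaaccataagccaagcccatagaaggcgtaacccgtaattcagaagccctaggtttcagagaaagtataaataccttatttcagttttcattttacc
P40 (AT1G72370): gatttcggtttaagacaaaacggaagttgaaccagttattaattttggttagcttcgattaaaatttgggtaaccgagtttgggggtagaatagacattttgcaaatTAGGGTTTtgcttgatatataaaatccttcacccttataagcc
RPSAb (AT3G04770): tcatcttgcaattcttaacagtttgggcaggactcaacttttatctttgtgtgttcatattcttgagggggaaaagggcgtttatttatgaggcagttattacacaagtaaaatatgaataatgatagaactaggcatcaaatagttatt
In the bases shown, the S6 genes both hold site II elements, 1 in RPS6A and 3 in RPS6B, and so do the L3 genes, 2 in RPL3A and 1 in RPL3B. In the SA pair, P40 holds a telo box and RPSAb holds neither motif in the bases shown. The sequences lie at chr4:15347805-15347954 (minus strand) for RPS6A, chr5:3260255-3260404 (minus) for RPS6B, chr1:16266403-16266552 (plus) for RPL3A, chr1:22723153-22723302 (minus) for RPL3B, chr1:27244932-27245081 (minus) for P40 and chr3:1311130-1311279 (minus) for RPSAb, all in TAIR10.1.

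Since the NAT lines affect enzymes that act on protein N-termini, the second residue of each protein was read from the annotated coding sequence. NatA acts on N-termini that begin with A, S, T, G, V or C once the initiator methionine has been removed, and NatB acts on a methionine followed by D, E, N or Q. Of the 60 proteins, 49 (81.7%) had a NatA-type second residue, against 51.6% of all 27443 proteins, 2 (AT3G53890 of S21 and AT5G03850 of S28) had a NatB-type one, against 23.4%, and 9 had another. In amiNAA10 the 48 measured NatA-type genes had a median log2 ratio of 0.11 and the 9 others 0.11, while the S21 gene had −0.16 and the S28 gene 0.02. In the group labelled Atnaa20 the S21 and S28 genes had ratios of −0.25 and −0.33, against a median of −0.37 over the NatA-type genes.

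The other cytosolic ribosomal protein genes had medians of the same sign as the 60. A list of 83 was made from the annotation's product names after the data had been seen, and 74 were measured in every comparison with Col-0. In the RNAi line their median was 0.22, with all 74 above 0, 23 higher and none lower past 1.2-fold, and the limma fit called 12 of 74 higher and none lower at an adjusted p under 0.05. Over all genes, 7.61% were higher and 10.7% lower past 1.2-fold there, and the limma fit called 1.09% higher and 1.18% lower. In amiNAA10 the median was 0.19 (25 higher, 3 lower, against 20.9% and 23.6% of all genes). In the group labelled Atnaa20 it was −0.31 (6 higher, 42 lower, against 18% and 20.9% of all genes). The highest ratios in the RNAi line were those of AT2G40205 (0.78, limma adjusted p = 0.0064) and AT3G11120 (0.73, limma adjusted p = 0.00825). Both encode L41, the shortest ribosomal protein. These were also high in the NAT lines, at 1.01 and 0.93 in amiNAA10 and 1.06 and 0.72 in the group labelled Atnaa20. The lowest in both NAT lines was the stalk protein gene AT5G57290, at −1.06 and −1.33, followed by the acidic stalk protein gene AT1G01100 (−0.38) in amiNAA10 and AT4G25890 (−0.79) in the group labelled Atnaa20. In the RNAi line the lowest were AT2G45710 (0.02) and AT1G07070 (0.07).

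Among these 74 genes Spearman's rho between the ratio and the annotated mRNA length was −0.51 in the RNAi line, −0.33 in amiNAA10 and, for the group labelled Atnaa20, −0.37. Among the 59 genes it was −0.19, 0.04 and −0.27 in the same order of lines, and over all genes −0.07, 0.07 and 0.03 (genes share libraries and are not independent). Among mRNAs under 700 bases the added ribosomal protein genes had a median ratio of 0.25 in the RNAi line and all genes 0.09, and from 700 to 1700 bases they had 0.20 and all genes 0.01. The part of length in the ratios was not tested further.

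Genes for making ribosomes had their highest median ratio over Col-0 in amiNAA10 and their lowest in the group labelled Atnaa20. Of 21 genes of ribosome biogenesis, 19 were higher and none lower past 1.2-fold in amiNAA10 (median 0.39), 15 were lower and 1 was higher in the group labelled Atnaa20 (median −0.37), and 6 were higher and none lower in the RNAi line (median 0.18). Over all genes, 20.9% were higher and 23.6% lower in amiNAA10, and 18% higher and 20.9% lower in the group labelled Atnaa20. In the RNAi line these shares were 7.61% and 10.7%. For amiNAA10 over the group labelled Atnaa20 the median of the 21 genes was 0.83, against 0.50 for the 59 genes. In amiNAA10 the largest ratios were those of a BRX1 gene, AT1G52930, and of NOP56 (AT1G56110), a core protein of the particles that methylate ribosomal RNA, each at 0.68. The smallest were those of APUM23 (AT1G72320) at 0.14 and REIL1 (AT4G31420) at 0.23. In the group labelled Atnaa20 the lowest were the NHP2-like gene AT4G12600 (−0.80) and GAR1 (AT3G03920, −0.72), both of the particles that modify uridines in ribosomal RNA, and the highest were the transcription factor gene NAC082 (AT5G09330, 0.30) and REIL1 (0.16). In the RNAi line, the limma fit called 4 of the 21 higher and none lower, against 1.09% and 1.18% of all genes. GAR1 was among the 4 (log2 ratio 0.42, limma adjusted p = 0.0108). NUC2 (AT3G18610), a nucleolin gene, had the largest ratio there, 0.62, at low means of 61.5 in the RNAi line and 40.01 in Col-0 (limma adjusted p = 0.194).

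Markers of cell types in the seedling were set beside these values. Over all genes, 10.7% were lower and 7.61% higher past 1.2-fold in the RNAi line, and 23.6% lower and 20.9% higher in amiNAA10. For the group labelled Atnaa20, 20.9% were lower and 18% higher. Of 12 genes of dividing cells, 5 were lower and none higher past 1.2-fold in the RNAi line (median −0.21), 7 were lower and 3 higher in amiNAA10 (−0.38), and 8 were lower and none higher in the group labelled Atnaa20 (−0.42). Mitotic cyclin, B-type CDK and KNOLLE genes made up the low end, such as CYCB1;2 (AT5G06150) with 171 in the RNAi line, 183 in amiNAA10, 151 in the group labelled Atnaa20 and 230 in Col-0. The replication gene MCM5 (AT2G07690) had 443, 576, 356 and 391. Of 8 green tissue genes, none was past 1.2-fold in the RNAi line (median −0.01), 6 were lower and 1 higher in amiNAA10 (−0.78), and 6 were lower and none higher in the group labelled Atnaa20 (−0.37). Of 7 root genes, 3 were lower in the RNAi line (median −0.24), 3 lower and 1 higher in amiNAA10 (−0.19) and all 7 lower in the group labelled Atnaa20 (−0.56), with IRT1 (AT4G19690) at 5877, 4881, 3859 and 6611 in the same order of lines. In the RNAi line the limma fit called none (0) of the 12 genes of dividing cells at an adjusted p under 0.05, with 3 lower at an unadjusted p under 0.05, and it called 1 of the 7 root genes lower. Of all genes, 1.18% were lower at the adjusted and 8.29% at the unadjusted threshold. The green tissue genes were not in that fit, and the NAT lines have no test. The part of these differences in the ribosomal protein ratios was not tested.

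**Figure D5:**
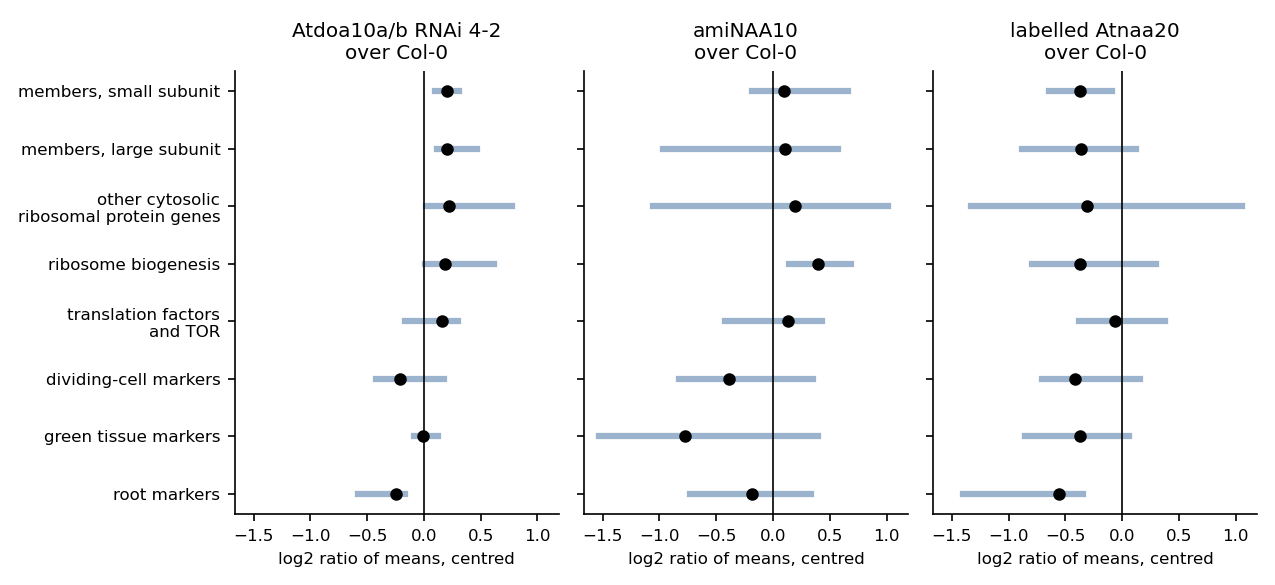
Centred log2 ratio of mean normalised counts (horizontal axis) for gene lists (vertical axis), with a panel each for Atdoa10a/b RNAi 4-2, amiNAA10 and the library group labelled Atnaa20, all over Col-0. Black points are the medians of the lists and blue bars run from the lowest to the highest gene. The ribosomal protein genes of both subunits have medians near 0.20 in the RNAi line and near −0.37 in the group labelled Atnaa20, and the genes of ribosome biogenesis have medians of 0.39 in amiNAA10 and, for the group labelled Atnaa20, of −0.37.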

How the data were processed

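The authors deposited 1 table for each line with the mean normalised count of the line and of Col-0, and with their own log2 fold changes, p-values, adjusted p-values and calls, which hold their findings and were not used. The deposited means are a signal that the authors made by dividing gene counts by a size factor per library and averaging over 3 libraries. The notes of the submitters list, with no role, TopHat2 2.0.12, DESeq 1.18.0, Bowtie2 2.2.3, HTSeq 0.6.1 and the build TAIR 10, while the paper's methods name HISAT2, RPKM, DESeq2 and edgeR. Whether counting used strand is not given in the sources used here. The 2 Col-0 columns of the NAT tables belong to another series by the paper's data statement and were not used, so the NAT lines were set against the Col-0 of the RNAi table.

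Log2 ratios of means were taken for genes with means of at least 10 in both lines and centred on their median (shift −0.002 for the RNAi line, 0.21 for amiNAA10, 0.10 for the group labelled Atnaa20 and 0.10 between the NAT lines). They have no test, and a fold of 1.2 was counted. The RNAi and Col-0 means were found to be sums of whole counts divided by 3 size factors (0.914 to 1.10). In the RNAi line 33636 (99.9%) and in Col-0 33660 of 33685 transcripts had 1 solution, all 60 genes among them, and size factors recomputed from these counts differed by at most 0.0179%. Libraries A to C are named by the size of these steps and carry no replicate number. limma 3.58.1 (trend, log2 of value + 1, means of at least 10) was run on them as a step added after the files were seen. In data simulated for the RNAi comparison (19849 genes) it recovered 37.8% of 1.5-fold and 90.9% of 2-fold changes, with 10 false calls, and a simulated count split gave 1933 of 1933 right.

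The members and lists were chosen with earlier results of these data known. Values were given for families whose paralogs (means of at least 50) differed by 0.4 or more in log2 ratio to Col-0, for the 5 highest and 5 lowest members of each comparison with Col-0, for members under a mean of 10 and for the 5 highest levels, and in other lists for the 2 ends. Of the other cytosolic ribosomal protein genes, members were found by RefSeq product name. Motifs and second codons were read from the TAIR10.1 genome and RefSeq annotation by locus tag, with 60 of 60 genes matched. Shares carry 95% exact binomial intervals, which like the counting half-widths cover counting error only. Alternatives were no centring, scaling on the sum, other filters, a fold of 1.5, sums over families, the RNAi line as the comparison line, other limma settings and leaving out each library. Python 3.11.15, pandas 2.3.3, scipy 1.17.1 and R 4.3.3 were used.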

Additional observations from a re-analysis of the deposited data

How the results depend on the processing

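For other folds, scalings and filters, sums over families and left-out libraries, the share of all genes past the fold is not given. The counts in those settings are therefore not read against all genes. With a fold of 1.5, 0 genes were higher in the RNAi line, 1 was higher in amiNAA10, 7 were lower in the group labelled Atnaa20 and 17 were higher in amiNAA10 over the group labelled Atnaa20. Summed over the paralogs of each of 27 families, the counts past 1.2-fold were 3 higher (RNAi line), 2 higher and 0 lower (amiNAA10), 22 lower (the group labelled Atnaa20) and 26 higher (between the NAT lines). With no centring, 37 genes were higher in amiNAA10 (median 0.31), 30 were lower in the group labelled Atnaa20 (median −0.27), and the median between the NAT lines was 0.60. Scaling on the sum of the means gave 24 higher in amiNAA10 (median 0.22) and a median of 0.60 between the NAT lines. With the RNAi line in place of Col-0, amiNAA10 had 1 gene higher and 8 lower, against 3623 and 4152 of 19806 genes. The group labelled Atnaa20 then had a median of −0.58. In amiNAA10 the median was −0.11 (a change of sign), with a large minus small subunit difference of 0.055. The cause was not tested. With no filter on means 2 genes were lower in amiNAA10, and with means of at least 50 none (0) was.

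Leaving out 1 library at a time gave 2 to 24 genes higher and medians of 0.16 to 0.26 in the RNAi line, 6 to 15 higher and medians of 0.051 to 0.15 in amiNAA10, and medians of −0.42 to −0.32 in the group labelled Atnaa20. The limma calls among the 59 genes went from 3 to 1 with quantile normalization, and ranged from 0 to 3 when 1 library was left out. All other counts stayed within 1.5 times of the values reported, and all other medians of the members kept their sign in these settings. The large minus small subunit difference, near 0 in every line, changed sign in the RNAi line (0.0017 as reported, −0.0057 summed over paralogs, −0.0098 without Col-0 library B) and in the group labelled Atnaa20 (0.0067 as reported, −0.00066 and −0.0095 without Col-0 libraries A and B). No paired analysis was possible because the libraries recovered from the means carry no replicate numbers. The means of the NAT lines were not split into libraries, so that their differences have no replicate error. Depth limits AT3G51190, with 3 counts at most in a library, and AT2G40010, whose ratios carry counting half-widths of 0.26 to 0.35.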

Other observations

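Of 13 genes for translation factors and the TOR pathway, a kinase pathway that adjusts protein synthesis to nutrients, 2 were higher and none lower past 1.2-fold in Atdoa10a/b RNAi 4-2 (median 0.16), 4 were higher and 1 lower in amiNAA10 (median 0.13), and 3 were higher and 1 lower in the group labelled Atnaa20 (median −0.06). Over all genes, 7.61% were higher and 10.7% lower in the RNAi line, 20.9% higher and 23.6% lower in amiNAA10, and 18% higher and 20.9% lower in the group labelled Atnaa20. The elongation factor genes AT1G07940 (0.30) and AT1G07920 (0.28) had the highest ratios in the RNAi line, where none of the 13 passed the limma fit at an adjusted p under 0.05 and 4 had an unadjusted p under 0.05, all higher. The lowest there were S6K2 (AT3G08720, −0.16) and S6K1 (AT3G08730, −0.05), the kinases of S6.

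In the group labelled Atnaa20 the highest ratio was that of TOR (AT1G50030), with a mean of 1905 in the group labelled Atnaa20 and 1368 in Col-0 (0.38), followed by S6K2 with 475 and 354 (0.32). The lowest were EBP1 (AT3G51800), which in Arabidopsis promotes ribosome-related gene expression and growth, with 2047 and 2484 (−0.38), and EIF4A1 (AT3G13920), an initiation factor gene, with 6419 and 7062 (−0.24). In amiNAA10, EIF4E1 (AT4G18040) had 1835, against 1179 in Col-0 (0.43), EBP1 had 3838 and 2484 (0.42), and S6K1 had 3186 and 3687 (−0.42).

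Of 3 seed storage genes, CRA1 (AT5G44120) had a mean of 142 in amiNAA10, 4.03 in the RNAi line, 1.01 in the group labelled Atnaa20 and 0.68 in Col-0, CRU3 (AT4G28520) had 12.6 in amiNAA10 and under 1 in every other line, and SESA1 (AT4G27140) was at 0 in every line.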
